A study of Mus musculus with 20 samples.

Results

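Transcript levels in the prostate of C57BL/6J mice were set against those of 4 other inbred strains, 129X1/SvJ, FVB/NJ, BALB/c and DBA/2. The C57BL/6J values came from 4 of the 20 arrays of the series, and all 20 entered each fit. The difference described throughout is the mean of the 4 C57BL/6J pools minus the mean of the 4 other strain means, on the log2 scale, so that a positive value means more transcript in C57BL/6J. A gene was taken as particular to C57BL/6J only where C57BL/6J also differed from each other strain in the same direction. All mice were untreated males aged 8 to 9 weeks with no engineered allele. C57BL/6J, 129X1/SvJ and FVB/NJ mice came from the Jackson Laboratory, and BALB/c (BALB/cAnCrl in the series' own text, BALB/cAnNCrl in the study's methods) and DBA/2 (DBA/2NCrl) mice from Charles River, so that strain and breeder cannot be told apart for these 2 strains. Each sample was a pool of whole prostate RNA, in equal parts from the dorsal, lateral, ventral and anterior lobes of 3 mice, and 12 mice stood behind each strain. Spotted arrays of mouse prostate cDNAs received amplified RNA of a pool together with a common reference that held RNA of all 5 strains. The reference thus held C57BL/6J RNA too, so that a transcript made by C57BL/6J alone could exceed the reference only by a bounded amount.

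The mouse prostate is a gland of 4 paired lobes in which luminal epithelial cells, kept by androgen, secrete proteins, polyamines and ions into the seminal fluid, around a layer of basal cells, smooth muscle and stroma. Inbred strains are each fixed for their own alleles, and C57BL/6J is the strain of the mouse reference genome and of many cancer models. A strain can stand alone in the level of a transcript, or share a level with some strains against others, and only a comparison with every strain tells these patterns apart. In pools of whole tissue, fewer cells of a type and less RNA per cell cannot be told apart.

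Of 11552 array elements (the spots), 11159 had enough values to be tested, and 5820 named genes were represented by 1 element each. The median log2 ratio of an array lay between -0.01 and 0.02. Across elements, pairs of C57BL/6J arrays correlated at 0.490 and 0.495 when labelled alike and at 0.135 to 0.437 when labelled with opposite dyes. In C57BL/6J, pools 1 and 4 were labelled with Cy3 and pools 2 and 3 with Cy5, and each other strain likewise had 2 pools in each dye. No element passed the test for a C57BL/6J difference that depended on the dye (0 of 11159 at an adjusted p under 0.05 from limma, 315 at an unadjusted p under 0.05). The pools came from separate mice, so p-values measure the spread between pools, and 4 arrays per strain limit the precision. Ratios to a reference give no absolute level, so the labelled tissue could be checked only between strains. Over markers of smooth muscle (9 genes measured), fibroblasts and matrix (18), endothelium (6), basal epithelium (2) and leukocytes (5), 0 were called in limma. Of them, 2, 2, 1, 1 and 1 had an unadjusted p under 0.05. Among all 5820 named genes 3.68% were called and 853 had an unadjusted p under 0.05, so 0 calls in such short lists say little. Elsewhere 2 of 4 adipose markers were lower, and 2 of 2 urothelial and 1 of 5 neuronal markers were higher. Of 7 luminal markers 1 was higher and 1 lower. Skeletal muscle (9), seminal vesicle (7) and erythrocyte (1) markers had 0 calls.

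The C57BL/6J level stood apart from the mean over the other strains at 359 elements, 3.22% of those tested, at an adjusted p under 0.05 (limma, Benjamini-Hochberg over all elements). It was higher at 198 (1.77%) and lower at 161 (1.44%). The median size of a called difference was 0.61 in either direction, or 1.52-fold higher and 1.53-fold lower. Among all elements the median size was 0.11. A difference from the mean does not say how many of the strains C57BL/6J differed from. The C57BL/6J mean was the outermost of the 5 strain means for 312 of the 359 elements and lay inside the range of the others for 47. Where it was outermost, the nearest strain was DBA/2 for 94 elements, FVB/NJ for 88, BALB/c for 74 and 129X1/SvJ for 56. At 56 elements (0.502% of those tested) all 4 C57BL/6J pools lay above all 16 other pools, and at 40 (0.358%) all 4 lay below them; 53 and 39 of these were among the called elements. The strictest criterion, a difference from each of the 4 other strains in the same direction with the largest of the 4 p-values adjusted, was met at 17 elements (0.152%). C57BL/6J was higher at 11 of them (0.0986%) and lower at 6 (0.0538%), and 181 elements (1.62%) met it at an unadjusted p under 0.05. These counts depended on single pools. Without C57BL/6J pool 1 the called elements numbered 225, and those beyond every strain numbered 9 without C57BL/6J pool 1 or 4, 10 without C57BL/6J pool 2 or DBA/2 pool 2 and 11 without FVB/NJ pool 2. The 2 Cy3 arrays of each strain alone gave 198 called elements and the Cy5 arrays 55. Each of the 359 differences had the same sign in both dyes. They were called on the arrays of both dyes together, which favours such agreement, so it is no separate check.

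**Figure D1:**
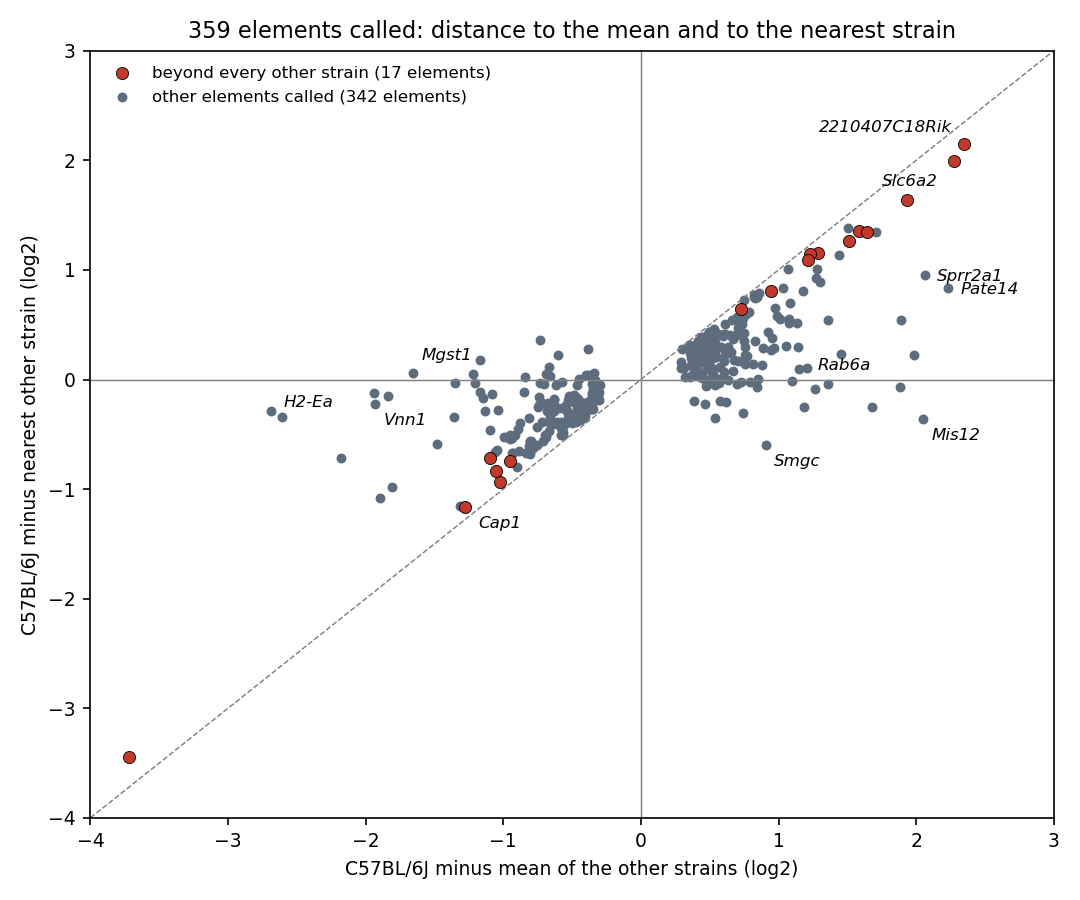
Each point is one of the 359 called elements. The x axis is C57BL/6J minus the mean of the other 4 strains, and the y axis is C57BL/6J minus the strain with the nearest mean, both in log2 units. The 17 elements beyond every other strain (red) lie close to the dashed line of equal values, whereas H2-Ea, Vnn1, Mgst1, Mis12 and Rab6a lie near 0 on the y axis.

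By the element that represents each gene, 6 genes were higher in C57BL/6J than in every other strain, namely 2210407C18Rik, Slc6a2, Pttg1, Scpep1, Tmem254a and Asah2. They included a noradrenaline transporter, the mitotic inhibitor securin, a lysosomal-type peptidase and a ceramidase, and they belonged to no common list. The 4 genes lower in C57BL/6J than in every other strain were Cap1, Olfr1372-ps1, Oip5os1 and Cilp2. The largest difference belonged to 2210407C18Rik, a protein-coding gene whose role is not annotated. It measured 1.99, 1.31, 1.10 and 1.79 in the 4 C57BL/6J pools, against -1.50 to -0.39 (median -0.68) in the 16 other pools. Every C57BL/6J pool was thus far above every other pool, and the gap between the groups was wider than the spread within either. The difference was 2.35 (SE 0.14, adjusted p = 1.3e-09), or 5.09-fold higher, and 129X1/SvJ, the nearest strain, was still 2.15 lower (SE 0.18).

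Promoters of 8 of the 10 genes were in the RefSeq table for GRCm38.p6, the assembly of C57BL/6J itself, each from 250 bases before to 50 bases after a gene's start. Those of the most distinct higher gene, of the peptidase gene and of the lower gene with the smallest error are shown 5′ to 3′ on the gene's own strand, for chr11:58613443-58613742 (minus strand), chr11:88955393-88955692 (minus strand) and chr4:122886027-122886326 (minus strand). Capitals mark matches, on either strand, to TATAAA, the core promoter box named for its first letters, to CCAAT, the box bound by NF-Y, to GGGCGG, a site of Sp1, to TTTGAA, a cell cycle homology region, or to AGAACA, a half-site of the androgen receptor. None of these motifs contains another.
2210407C18Rik: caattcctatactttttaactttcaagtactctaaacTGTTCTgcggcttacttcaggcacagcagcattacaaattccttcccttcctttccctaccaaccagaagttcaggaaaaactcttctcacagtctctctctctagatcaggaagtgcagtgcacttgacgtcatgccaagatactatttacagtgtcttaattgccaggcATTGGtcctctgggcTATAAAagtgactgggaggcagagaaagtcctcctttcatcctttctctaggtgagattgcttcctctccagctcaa
Scpep1: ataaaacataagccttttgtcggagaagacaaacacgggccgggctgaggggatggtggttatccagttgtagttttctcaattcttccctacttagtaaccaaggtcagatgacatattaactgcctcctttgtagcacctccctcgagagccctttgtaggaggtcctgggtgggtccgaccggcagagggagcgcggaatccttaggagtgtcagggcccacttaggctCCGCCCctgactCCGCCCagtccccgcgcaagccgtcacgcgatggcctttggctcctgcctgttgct
Cap1: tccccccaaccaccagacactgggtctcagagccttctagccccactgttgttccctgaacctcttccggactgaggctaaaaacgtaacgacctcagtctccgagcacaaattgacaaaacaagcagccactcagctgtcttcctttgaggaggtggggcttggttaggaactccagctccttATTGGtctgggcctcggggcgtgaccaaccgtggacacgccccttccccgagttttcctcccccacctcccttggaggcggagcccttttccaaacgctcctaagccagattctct
The 2210407C18Rik window held TATAAA at position -27, CCAAT at -42 and AGAACA at -213 from the start, counted at the first base of each match. Scpep1 held GGGCGG at -18 and -6, and Cap1 held CCAAT at -66. Among 32851 promoters of this length, 13.6% held TATAAA, 37.4% CCAAT, 35.7% GGGCGG, 17.9% TTTGAA and 19.0% AGAACA, and of the 8 genes 1, 3, 4, 0 and 3 held them. These matches are a description of the letters, and the arrays measured nothing at these windows.

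Slc6a2 encodes the noradrenaline transporter of sympathetic nerve endings, which supply the prostate. It measured 1.22, 1.49, 1.22 and 1.85 in the C57BL/6J pools, against -1.49 to -0.12 (median -0.80) elsewhere. No pool of another strain reached the reference level, and all C57BL/6J pools exceeded it. The difference was 2.28 (SE 0.16, adjusted p = 2e-08), a 4.84-fold higher level, and DBA/2 came nearest at 1.99 below C57BL/6J. The other measured genes of neurons and Schwann cells did not share it. Snap25 differed by -0.11, Stmn2 by -0.01, S100b by -0.16 and Gap43 by 0.68 (SE 0.61), none past the threshold.

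Pttg1 encodes securin, which holds back the separation of sister chromatids, and was carried by 2 elements. The representing element measured 0.90, 1.12, 1.18 and 1.45 in C57BL/6J, against -0.95 to -0.14 (median -0.36) in the 16 other pools. Its other element gave 1.43, 1.41, 1.00 and 1.62, against -1.15 to -0.08 (median -0.37). Both elements separated C57BL/6J from all other pools without overlap. The differences were 1.58 (SE 0.12, adjusted p = 2.71e-08) and 1.93 (SE 0.11, adjusted p = 6.12e-10), 3.00-fold and 3.82-fold higher.

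Scpep1, a serine carboxypeptidase induced by retinoids, measured 1.52, 1.00, 0.36 and 1.13 in C57BL/6J, against -0.59 to 0.02 (median -0.27) in the other pools. Pool 3 stood nearest to the other strains but remained above them. The difference was 1.29 (SE 0.14, adjusted p = 4.99e-06), or 2.44-fold. A further element of the gene gave 1.02, 1.12, 0.41 and 1.47, against -0.62 to 0.40, and a difference of 1.23 (SE 0.16). That element just cleared the highest other pool, and it was beyond every strain in 10 of the 20 fits that left out 1 pool. The unnamed spot before each Scpep1 element, 5915 and 6107, was also called higher, by 0.89 (adjusted p = 0.00146) and 0.96 (adjusted p = 0.0002), with deviations from the strain means that correlated with those of the Scpep1 element at -0.288 and -0.504, and the part of these spots in the Scpep1 values was not tested. Tmem254a, a transmembrane protein gene whose close copies Tmem254b and Tmem254c may share its signal, measured 0.93, 0.76, 0.78 and 1.08, against -0.69 to 0.01 (median -0.32). It was 2.32-fold higher (difference 1.22, SE 0.10, adjusted p = 3.8e-07). Asah2, the neutral ceramidase that cleaves ceramide at the cell surface, measured 0.63, 0.76, 0.66 and 0.85, against -0.57 to 0.05 (median -0.16). It was 1.92-fold higher (difference 0.94, SE 0.09, adjusted p = 7.13e-07). In both genes the C57BL/6J pools lay close together and clear of all others.

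**Figure D2:**
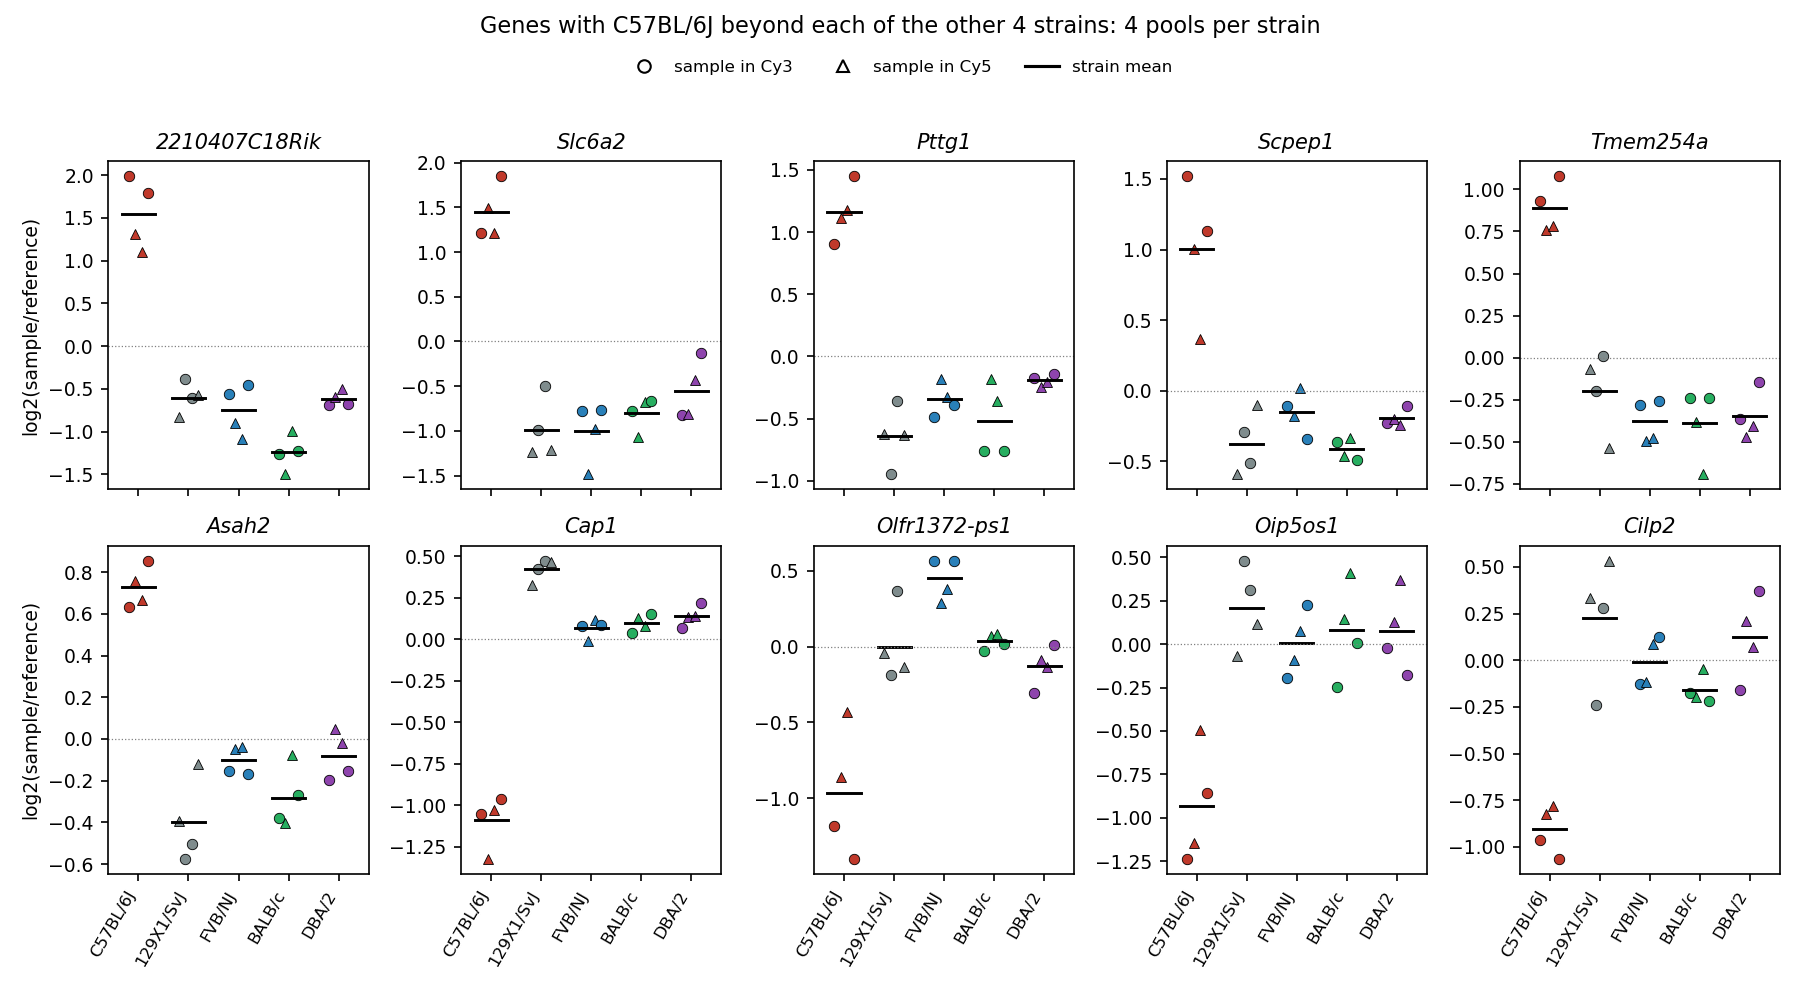
Log2 ratios of sample over reference (y axis, its own scale in each panel) in the 4 pools of each strain (x axis), for the 10 genes with C57BL/6J beyond every other strain. Circles are pools with the sample in Cy3, triangles in Cy5, and bars are strain means. In every panel the C57BL/6J pools lie on one side of the 16 others, most widely for 2210407C18Rik and Slc6a2.

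Cap1, an adenylyl cyclase-associated protein that binds actin monomers and speeds filament turnover, was the lower gene with the smallest error. It measured -1.05, -1.32, -1.03 and -0.96 in C57BL/6J, against -0.01 to 0.47 (median 0.13) in the other pools. The groups were far apart, and the 3 strains other than 129X1/SvJ had nearly the same mean, 0.07 in FVB/NJ, 0.10 in BALB/c and 0.14 in DBA/2. The difference was -1.27 (SE 0.07, adjusted p = 6.12e-10), or 2.42-fold lower. The remaining lower genes had smaller margins. Olfr1372-ps1, a transcribed pseudogene of an olfactory receptor, measured -1.18, -0.86, -0.43 and -1.40, against -0.31 to 0.57 (median 0.01). Oip5os1, a long noncoding RNA, measured -1.24, -1.14, -0.50 and -0.86, against -0.25 to 0.48 (median 0.10). Cilp2, a matrix protein related to one of cartilage, measured -0.96, -0.82, -0.78 and -1.06, against -0.24 to 0.53 (median 0.01). Pool 3 was the least low of the C57BL/6J pools in all 3 genes, and no pools overlapped. Their differences were -1.05 (SE 0.13), -1.02 (SE 0.14) and -0.95 (SE 0.11), that is 2.08-fold, 2.04-fold and 1.94-fold lower, with adjusted p-values of 3.28e-05, 9.2e-05 and 2.41e-05. Whether the Oip5os1 element separates the strands at this locus is not given in the sources used here.

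The 10 genes were not equally secure as properties of C57BL/6J alone. Each kept its call against the mean of the others in every fit that left out 1 of the 20 pools. By the representing element, 2210407C18Rik, Slc6a2, Pttg1, Scpep1, Tmem254a, Asah2 and Cap1 also stayed beyond every strain in all 20 of these fits. Among the fits with other processing, 2210407C18Rik kept this stricter call in all 12. With the Cy3 arrays alone it was lost by Slc6a2, Pttg1 and Asah2, with the Cy5 arrays alone by Scpep1, Tmem254a, Asah2 and Cap1, with either dye alone by Cilp2, Oip5os1 and Olfr1372-ps1, and with array weights by Oip5os1 and Olfr1372-ps1. Cilp2 lost that stricter call in 14 of the 20 fits (adjusted p of 0.00494 to 0.175), Oip5os1 in 10 (0.00547 to 0.166) and Olfr1372-ps1 in 16 (0.00163 to 0.254), and the pools concerned came from C57BL/6J and from several of the other strains.

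Of the elements beyond every strain, 4 have no gene name in the annotation used here. Element 8596 held the largest difference of the whole comparison. It measured -3.94, -3.41, -3.03 and -3.71 in C57BL/6J, against -0.49 to 0.86 (median 0.21) in all other pools, so that every C57BL/6J pool was far below the rest. The difference was -3.72 (SE 0.18, adjusted p = 9.4e-11), or 13.2-fold lower, and it stayed beyond every strain in all 20 fits without 1 pool. The next element on the array, 8597, represents Tmem229a, which was -1.65, -1.12, -0.65 and -1.74 in C57BL/6J, against -0.36 to 0.76 elsewhere. Its difference was -1.31 (SE 0.18, adjusted p = 0.000135), its pools did not overlap, and it narrowly missed the criterion of every strain (adjusted p = 0.0522). Over the 20 arrays the deviations of elements 8596 and 8597 from their strain means correlated at 0.716, and the part of the neighbouring spot in the Tmem229a value was not tested. Elements 4990 and 6820 were higher by 1.64 (SE 0.18) and 1.51 (SE 0.18), and element 2741 was 2.14-fold lower (difference -1.10, SE 0.11); none of their pools overlapped the others. They lost the stricter call in 4, 5 and 13 of the 20 fits without 1 pool.

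Secretory and androgen-regulated genes of the prostate differed in both directions. Of 28 measured members, 6 were higher and 3 lower in C57BL/6J, beside 1.91% higher and 1.77% lower (3.68% in either direction) among all 5820 named genes, and the median difference of the list was -0.04, beside -0.01 for all named genes. The higher ones were Azgp1, Sbp, Odc1, Smgc, Spink5 and Tmprss2. The lower ones were Psca, Wfdc2 and Fabp5. Like all gene lists here, this one was drawn up with earlier results of the series known.

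Sbp encodes spermine-binding protein, a major secretion of the ventral lobe. It measured 0.74, 0.82, 0.98 and 0.54 in C57BL/6J, against -1.26 to 0.09 (median -0.48). The difference was 1.28 (SE 0.16, adjusted p = 5.54e-05), or 2.42-fold higher, and 2 further elements gave 1.71 and 1.44. All 3 elements placed the C57BL/6J pools above every other pool, yet none met the criterion of every strain (adjusted p of 0.132, 0.27 and 0.169). Odc1, the rate-limiting enzyme of polyamine synthesis, measured 0.78, 0.82, 0.60 and 0.59, against -0.75 to 0.40 (median -0.41). Its difference was 1.01 (SE 0.10, adjusted p = 3.88e-06), and 3 further elements gave 1.18, 0.99 and 1.09. Pools did not overlap for any of these 4 elements, and FVB/NJ was the nearest strain for each. Azgp1, a secreted zinc-binding glycoprotein that mobilizes lipid, measured 0.83, 0.80, 1.11 and 0.75, against -1.14 to 0.40 (median -0.72). It was 2.56-fold higher (difference 1.36, SE 0.12, adjusted p = 6e-07). Only 129X1/SvJ approached it, 0.54 below C57BL/6J, while the other 3 strains lay below the reference.

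The other higher members were less set apart. Smgc, a salivary-type mucin product, measured 0.31, 0.73, -0.08 and 0.89 in C57BL/6J, against -1.58 to 1.50 (median -0.81). FVB/NJ had the highest mean, 1.06 beside 0.46 in C57BL/6J, so that C57BL/6J was high only against the other 3 strains, and the difference from the mean was 0.91 (SE 0.16, adjusted p = 0.00136). Spink5, a serine protease inhibitor of epithelia, differed by 0.77 (SE 0.17, adjusted p = 0.0121), with DBA/2 within 0.22. It lost its call without C57BL/6J pool 1, 2 or 4 (adjusted p = 0.0577, 0.064 and 0.0632). Tmprss2, an androgen-regulated membrane protease, differed by 0.40 (SE 0.10, adjusted p = 0.0406), a call lost in 13 of 20 fits without 1 pool, and its other element gave 0.24 (adjusted p = 0.493).

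Psca, the glycolipid-anchored prostate stem cell antigen, measured -1.06, -1.46, -0.91 and -1.67 in C57BL/6J, against -1.69 to 1.34 (median -0.07). BALB/c was as low by this element, with a mean of -1.16 against -1.28 in C57BL/6J. The difference from the mean was -1.17 (SE 0.21, adjusted p = 0.00203), and further elements gave -1.21, -1.80 and -1.89. By the last pair of elements C57BL/6J minus BALB/c was -0.98 and -1.08 (adjusted p = 0.0771 and 0.0535), which did not pass the threshold. Wfdc2, a secreted protein with a whey acidic domain, measured -0.72, -1.21, -0.77 and -0.80, against -1.17 to 0.86 (median -0.01). It was 1.81-fold lower (difference -0.85, SE 0.13, adjusted p = 0.000271), and BALB/c was again close, with C57BL/6J minus BALB/c at -0.11 (SE 0.16). Fabp5, an epidermal fatty acid-binding protein, differed by -0.74 (SE 0.19, adjusted p = 0.0377), a call lost in 9 of 20 fits without 1 pool (adjusted p up to 0.191).

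**Figure D3:**
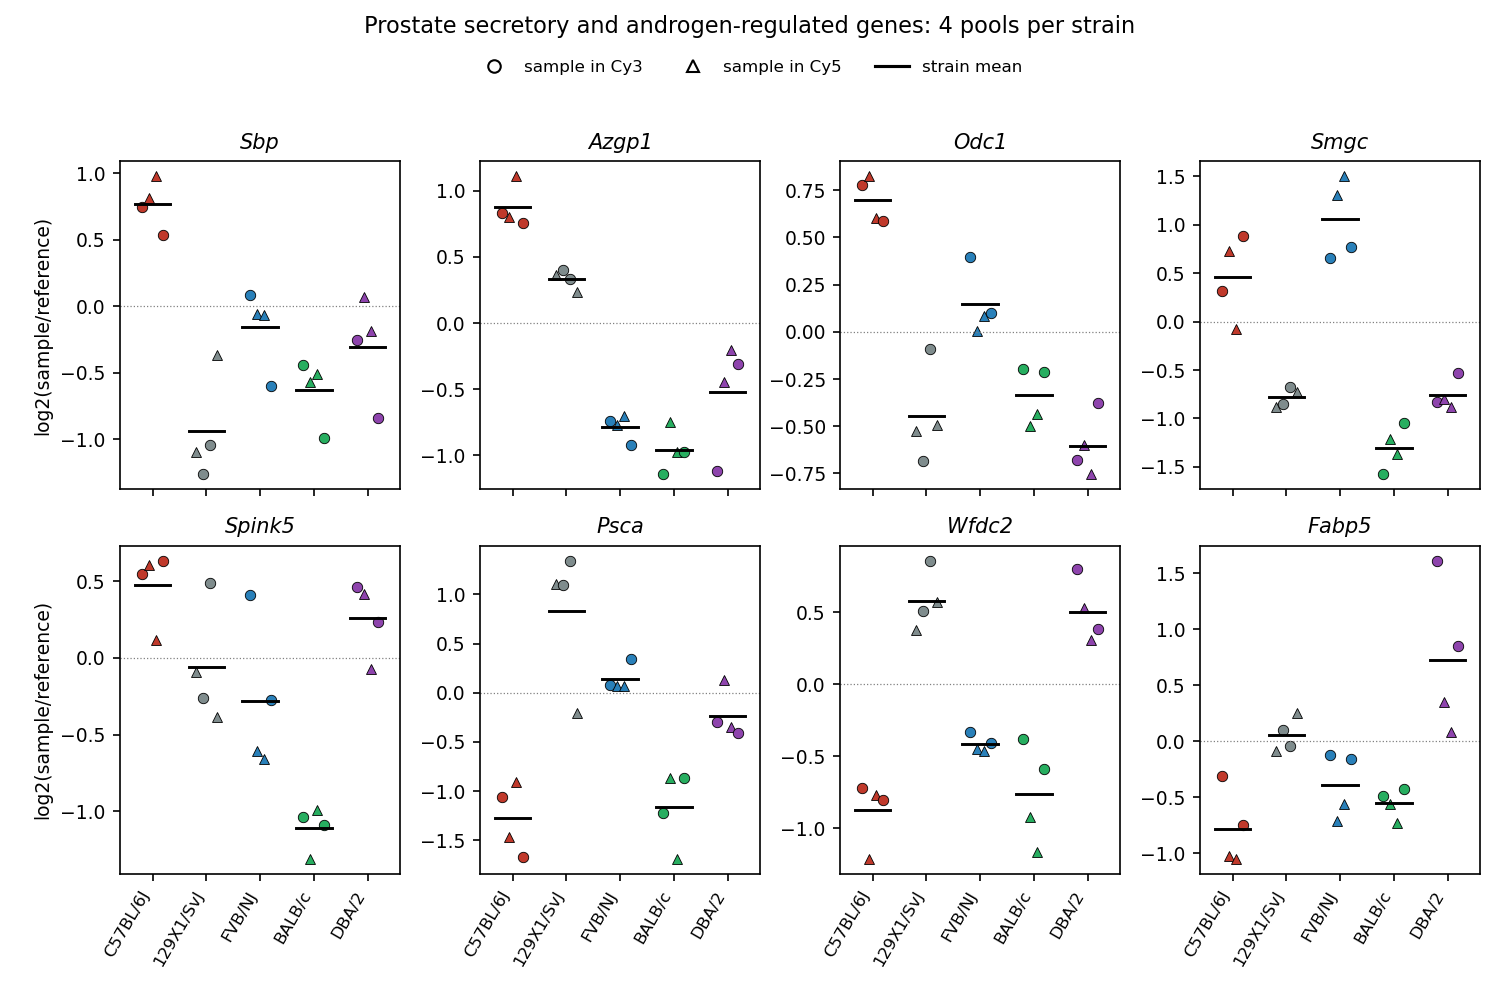
Log2 ratios of sample over reference (y axis, its own scale in each panel) in the 4 pools of each strain (x axis) for 8 secretory and androgen-regulated genes. Circles are pools in Cy3, triangles in Cy5, bars strain means. C57BL/6J is highest for Sbp, Azgp1 and Odc1 without overlap, is second to FVB/NJ for Smgc, and lies beside BALB/c at the low end for Psca and Wfdc2.

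Seminal vesicle transcripts varied among C57BL/6J pools more than any group above. Svs2, the main secretion of that gland, measured -7.63, -1.58, -4.79 and -5.11 in the 4 C57BL/6J pools, against -7.31 to 2.56 (median -2.36). Its difference of -1.93 (SE 1.17) did not pass the test (adjusted p = 0.531). The median of 7 measured seminal vesicle genes was -3.06 and -2.97 in C57BL/6J pools 1 and 4, and 0.06 and 0.22 in pools 2 and 3. In C57BL/6J this split of the list median coincided with the dye, since pools 1 and 4 carried Cy3 and pools 2 and 3 Cy5. The median difference of the list was -2.26 in the Cy3 arrays and 0.64 in the Cy5 arrays. Svs2 itself did not split by dye, with pool 3 beside pool 4. In FVB/NJ the list median was -0.05 and -0.985 in Cy3 pools 1 and 4, and -3.72 and -0.18 in Cy5 pools 2 and 3. Pool medians of both dyes overlapped in 129X1/SvJ and DBA/2 too, and in BALB/c the Cy3 pools were the higher. By its representing element Sbp, though above all other pools throughout, was lower in pools 1 and 4 than in pools 2 and 3. Its further elements did not show this split. They measured 1.19, 1.26, 0.93 and 0.55, and 0.976, 1.135, 0.921 and 0.613, in pools 1 to 4. The part of the seminal vesicle variation in the secretory values above was not tested.

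Of 65 measured genes of the cell cycle, mitosis and DNA replication, 5 were higher and 0 lower in limma (1.91% and 1.77% among all named genes), and the median difference was 0.04. In either direction 18 had an unadjusted p under 0.05, and array weights gave 8 higher and 1 lower. Besides Pttg1 these were Mis12, Mcm6, Bub1b and Ccnb2. Mcm6, a subunit of the replicative helicase, measured 0.55, 0.08, 0.50 and 0.56 in C57BL/6J, against -0.49 to 0.39 (median -0.14). The pools overlapped through pool 2, and the difference was 0.53 (SE 0.12, adjusted p = 0.0153), a call lost without C57BL/6J pool 1, 3 or 4 (0.086, 0.0661 and 0.0778), and its other element gave 0.40 (adjusted p = 0.027). Bub1b, a spindle checkpoint kinase, differed by 0.50 (SE 0.11, adjusted p = 0.0138), and was not called without C57BL/6J pool 3 or 4 (0.0512 and 0.0953). Ccnb2, a mitotic cyclin, differed by 0.42 (SE 0.11, adjusted p = 0.0444), a call lost in 13 of the 20 fits without 1 pool, and its other element, at 0.44, did not pass. Of these 5 genes, Pttg1 alone was beyond every strain.

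The second actin gene after Cap1 was Crip1, a small LIM protein. It measured -1.09, -1.98, -1.13 and -1.56 in C57BL/6J, against -1.06 to 1.03 (median 0.17). The groups did not overlap, though the lowest pool of another strain came next to the highest C57BL/6J pools. The difference was -1.48 (SE 0.14, adjusted p = 7.13e-07), or 2.79-fold lower, and DBA/2 was the nearest strain (C57BL/6J minus DBA/2 -0.59, SE 0.17). Of 41 measured regulators of the actin cytoskeleton these were the only 2 called, where 3.68% of all named genes were called, and the median difference of the list was -0.04. Cap1 was also the 1 called gene among 46 measured members of a list of phosphoinositide metabolism and binding, whose median was -0.02. Pik3c2g, a phosphoinositide kinase gene that was called lower (difference -1.17), was not on that list.

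Among 35 measured members of a list of solute carriers and ion transporters, 4 were higher and 1 lower in C57BL/6J (1.91% and 1.77% among all named genes). The list median was 0.05. The list did not hold every called transporter, since Slc5a4b (0.77) and Slc30a10 (-0.95), given below, were not on it. Slc6a2 led the higher members. Slc5a8, a sodium-coupled monocarboxylate transporter, measured 0.92, 1.31, 0.55 and 0.27 in C57BL/6J, against -1.10 to 0.86 (median -0.17). Its pools overlapped those of other strains, and its difference of 0.97 (SE 0.21, adjusted p = 0.0118) lost the call without C57BL/6J pool 1 or 2 (0.0638 and 0.0984). Slc1a5, a glutamine transporter, measured 1.22, 0.43, 0.21 and 0.24, against -0.89 to 0.32. Pool 1 was far above the other 3. The difference was 0.62 (SE 0.15, adjusted p = 0.0256), 0.39 without pool 1 (0.178) and 0.65 without pool 2 (0.0627). Slc39a8, a zinc and manganese importer, differed by 0.57 (SE 0.14, adjusted p = 0.0286), with BALB/c at the same level, and lost its call when any C57BL/6J pool was left out (0.0621 to 0.161).

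Genes of glutathione and redox metabolism were called in both directions, 2 higher and 3 lower of 27 measured (1.91% and 1.77% among all named genes), with a median of -0.09. In most of them C57BL/6J shared its level with another strain. Mgst1, the microsomal glutathione S-transferase, measured -1.39, -2.17, -2.40 and -2.50 in C57BL/6J, against -2.30 to 1.36 (median -0.45). C57BL/6J, BALB/c and DBA/2 were low, with means of -2.12, -2.18 and -1.60, and FVB/NJ and 129X1/SvJ were high, at 1.08 and 0.85. The difference was -1.66 (SE 0.15, adjusted p = 6.96e-07), and 2 further elements gave -1.94 and -1.84. Slc7a11, the cystine importer that feeds glutathione synthesis, measured -1.43, -1.38, -1.24 and -1.62, against -2.21 to 1.47 (median 0.12). Its difference was -1.35 (SE 0.18, adjusted p = 8.1e-05), and 129X1/SvJ was equally low, at a mean of -1.38 against -1.42 in C57BL/6J. Gsto1, an omega-class glutathione transferase, measured 0.64, 0.66, 0.53 and 0.98, against -1.50 to 1.28 (median -0.76). C57BL/6J and 129X1/SvJ were both high, and the difference was 1.19 (SE 0.11, adjusted p = 6e-07).

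Glo1, the glyoxalase that detoxifies methylglyoxal with glutathione, was the redox gene with the most uniform C57BL/6J values, -0.70, -0.72, -0.66 and -0.79, against -0.60 to 0.58 (median 0.17). All 4 pools were below all others. The difference was -0.81 (SE 0.09, adjusted p = 1.46e-05), or 1.76-fold lower, but C57BL/6J, 129X1/SvJ and FVB/NJ formed the low side and BALB/c and DBA/2 the high side. A further Glo1 element gave -0.23 (SE 0.10, adjusted p = 0.262) and did not pass. Prdx3, a mitochondrial peroxiredoxin, differed by 0.47 (SE 0.13, adjusted p = 0.0435), a call lost in 14 of 20 fits without 1 pool; its other element gave 0.42 (adjusted p = 0.229).

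Sharing of this kind extended to some of the largest differences. H2-Ea encodes the alpha chain of the class II molecule I-E, which several inbred strains are known not to express. It measured -4.05, -3.11, -3.22 and -3.86 in C57BL/6J, against -3.61 to 1.50 (median -0.76). 129X1/SvJ (mean -3.27) and FVB/NJ (-2.57) were low as well, and BALB/c (1.17) and DBA/2 (1.19) were high. The difference of -2.69 (SE 0.19, adjusted p = 2.13e-08) therefore set C57BL/6J apart from the mean, whereas C57BL/6J minus 129X1/SvJ was -0.29 (SE 0.25, adjusted p = 0.55). Mis12, a kinetochore protein, measured 0.79, 0.98, 0.72 and 0.74 in C57BL/6J, against -2.50 to 1.45 (median -1.90). Rab6a, a GTPase of Golgi transport, measured 0.84, 0.96, 0.99 and 0.98, against -3.22 to 1.06 (median -1.27). In both genes DBA/2 was as high as C57BL/6J, with means of 1.17 and 1.01, and the other 3 strains were far below. Their differences were 2.05 (SE 0.14, adjusted p = 1.98e-08) and 1.88 (SE 0.21, adjusted p = 1.46e-05). Mfsd5, a membrane protein of the major facilitator family, had the same division of strains and a difference of 1.20 (SE 0.17, adjusted p = 0.000135). Rab6a and Mfsd5 were chosen after their values were seen, as were Vnn1, Pate14, Gm7714, Pik3c2g and Adam11.

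**Figure D4:**
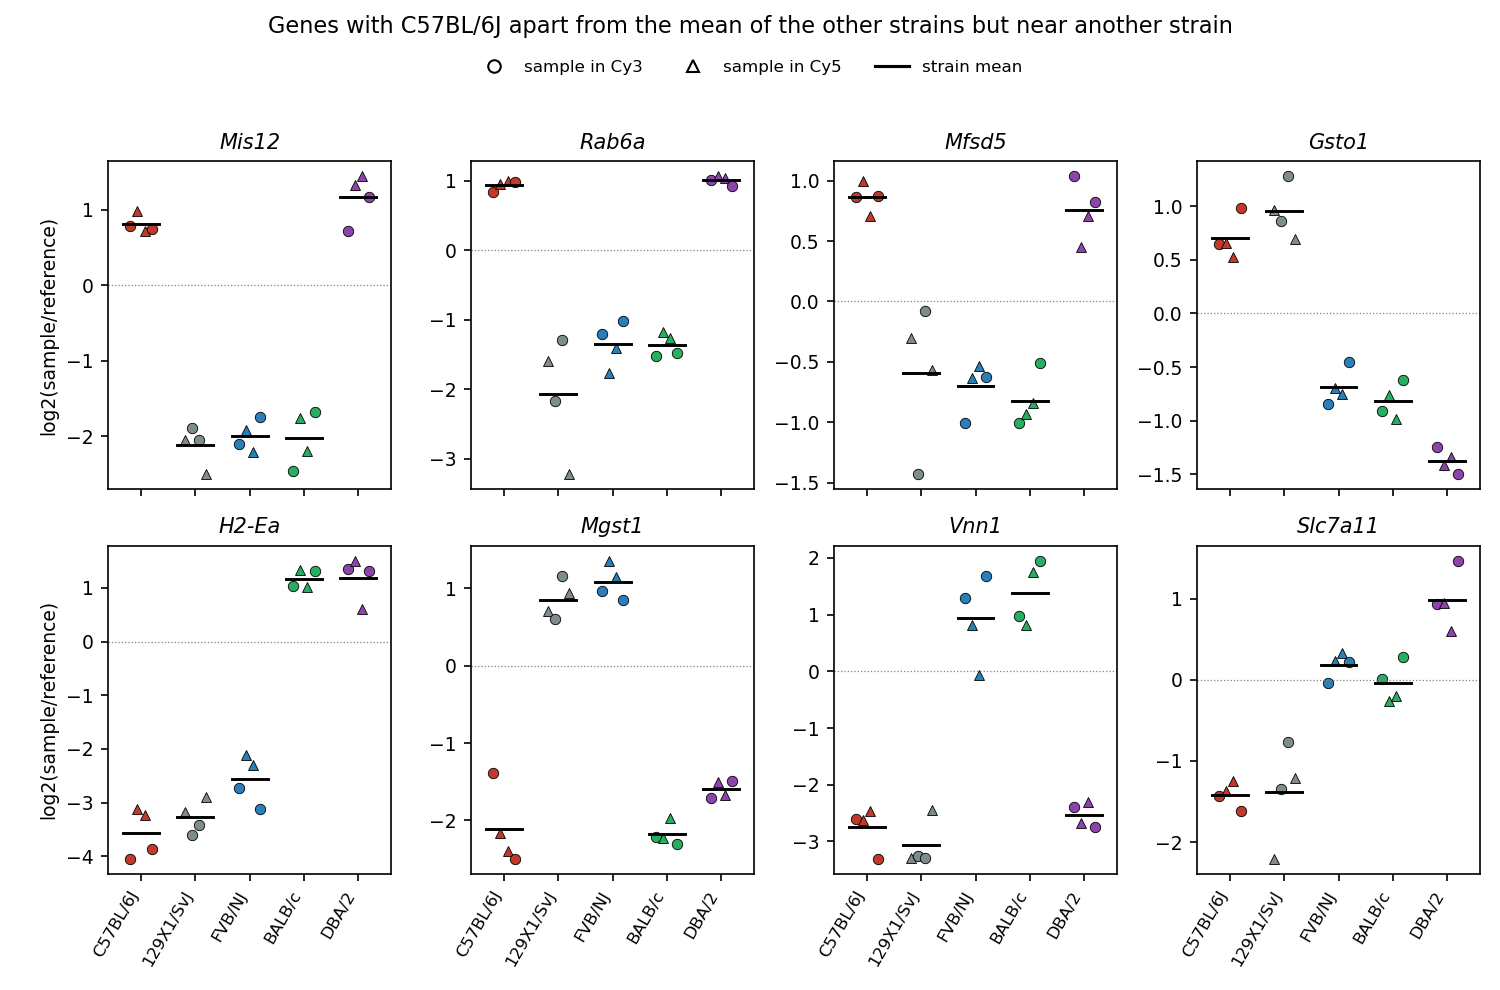
Log2 ratios of sample over reference (y axis, its own scale in each panel) in the 4 pools of each strain (x axis) for 8 genes called against the mean of the other strains. Circles are pools in Cy3, triangles in Cy5, bars strain means. In each panel at least 1 other strain has its mean within 0.36 of the C57BL/6J mean, DBA/2 for Mis12, Rab6a and Mfsd5, 129X1/SvJ for Gsto1 and Slc7a11, and BALB/c for Mgst1.

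Vnn1, a pantetheinase that releases cysteamine, measured -2.61, -2.62, -2.47 and -3.31 in C57BL/6J, against -3.29 to 1.95 (median -1.18). C57BL/6J was on the low side with 129X1/SvJ (mean -3.07) and DBA/2 (-2.53), and its difference was -1.93 (SE 0.25, adjusted p = 6.76e-05). Pate14, of a family of small secreted proteins, measured 0.71, 0.82, 1.70 and 1.50, against -3.79 to 0.77 (median -0.79). C57BL/6J was highest, with BALB/c 0.84 below it (SE 0.33), and the difference was 2.23 (SE 0.26, adjusted p = 1.97e-05), with DBA/2 far below all others at a mean of -3.11. Gm7714 measured -2.74, -2.41, -2.21 and -3.74, against -2.37 to 2.78 (median -0.98), a difference of -2.18 (SE 0.38, adjusted p = 0.00133) over a graded range of strain means. Pik3c2g, a class II phosphoinositide kinase gene, and Adam11, of the disintegrin family, followed the division of Mgst1, with C57BL/6J at -1.39 and -1.46, BALB/c at -1.56 and -1.51 and DBA/2 at -0.87 and -1.09. Their differences were -1.17 (SE 0.16) and -1.22 (SE 0.18).

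Antigen presentation genes other than H2-Ea differed less. Of 13 measured, 2 were higher and 1 lower (1.91% and 1.77% among all named genes), with a median of -0.12. H2-Eb1, the beta chain partner of H2-Ea, differed by 0.60 (SE 0.13, adjusted p = 0.00769), with means of 0.29 in C57BL/6J and -1.72 in FVB/NJ, the 1 low strain, and the call was lost without C57BL/6J pool 4 (0.0619). H2-Q1, a class I gene, differed by 0.53 (SE 0.12, adjusted p = 0.0178), with 129X1/SvJ and FVB/NJ at the level of C57BL/6J and no call without C57BL/6J pool 1 or 2 (0.0506 and 0.118). B2m, the common light chain of class I molecules, was carried by 3 elements. The representing element measured -1.24, -0.40, -0.39 and -0.38 in C57BL/6J, against -0.59 to 0.60 (median 0.11). It did not pass (difference -0.63, SE 0.18, adjusted p = 0.0695), and was called without BALB/c pool 4 (-0.67, adjusted p = 0.0457). The other elements measured -1.17, -0.64, -0.75 and -0.73, and -1.21, -0.75, -0.69 and -0.79, all below the lowest other pools of -0.47 and -0.44. They passed, with differences of -0.93 (SE 0.15, adjusted p = 0.000518) and -0.90 (SE 0.16, adjusted p = 0.00133). Without C57BL/6J pool 1, the lowest by each element, the representing element differed by -0.42 (adjusted p = 0.401).

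The barrier gene with the largest difference from the mean was Sprr2a1, a cornified envelope protein gene with the close copies Sprr2a2 and Sprr2a3. It measured 1.27, 1.02, 1.51 and 0.67 in C57BL/6J, against -2.29 to 0.63 (median -0.97). The pools did not overlap, although the lowest C57BL/6J pool was just above the highest other one. The difference was 2.06 (SE 0.19, adjusted p = 6.96e-07), or 4.17-fold higher, and DBA/2 came nearest at 0.96 below. Upk1b, a uroplakin of the urothelium, differed by 0.96 (SE 0.13, adjusted p = 8.27e-05) with 129X1/SvJ 0.29 below, and its other element gave 0.95. These were the 2 measured genes of the urothelial list, and both were higher; its part in the result was not tested. Of 21 measured keratin, envelope and barrier genes, 2 were higher and 1 lower (1.91% and 1.77% among all named genes), with a median of 0.05. The lower one was Epcam, an epithelial adhesion protein, at -0.39, -0.41, -0.55 and -0.50 in C57BL/6J, against -0.29 to 0.56 (median -0.02). Its pools did not overlap, and the difference was -0.50 (SE 0.07, adjusted p = 0.000173). Among the other measured luminal markers, Krt18 differed by 0.08, Cd24a by 0.03, Cldn3 by 0.05, Foxa1 by 0.01 and Pbsn, the gene of probasin, by -0.37 (SE 0.24), none past the threshold, and Tmprss2 was higher as given above. Whether the share of luminal cells differed was not tested.

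Lipid genes included 1 higher and 2 lower of 17 (1.91% and 1.77% among all named genes), with a median of 0.00 (Azgp1, Fabp5 and Fabp4). Fabp4, the fatty acid-binding protein of adipocytes, measured -0.82, -0.11, -0.42 and -0.62 in C57BL/6J, against -0.29 to 0.94 (median 0.11). The pools overlapped through pool 2, and the difference was -0.63 (SE 0.13, adjusted p = 0.00893), -0.52 without C57BL/6J pool 1 (0.0764). Car3, a carbonic anhydrase abundant in fat, measured -1.25, 0.03, -0.81 and -1.21, against -1.19 to 1.21. FVB/NJ was as low, and the difference of -0.84 (SE 0.21, adjusted p = 0.0284) was lost without C57BL/6J pool 1, 3 or 4 (0.175, 0.0821 and 0.142). The 4 measured adipose markers were all below 0 in the difference, with a median of -0.41, and their median ran from -0.64 to -0.04 in C57BL/6J pools, against -0.34 to 0.39 in the other pools. The share of adipose tissue in the pools and its part in these values was not tested.

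Genes of the respiratory chain differed by small amounts that leaned one way. Of 20 measured subunits and assembly factors of complex I, the NADH dehydrogenase, 15 had a negative difference, and the median was -0.23. Only Ndufa7 passed, with -0.28, -0.23, -0.42 and -0.35 in C57BL/6J, against -0.16 to 0.45 (median 0.03). Its pools were below all others, its difference was -0.39 (SE 0.09, adjusted p = 0.0204), and the call was lost without C57BL/6J pool 1, 3 or 4 (0.0586, 0.0922 and 0.0737). Of 32 other respiratory chain and ATP synthase genes, 28 had a negative difference, the median was -0.16, and Cox4i1 alone passed (difference -0.41, SE 0.11, adjusted p = 0.0381; lost in 11 of 20 fits without 1 pool). Among all 5820 named genes 3012 had a negative difference, and 3.68% were called (1.77% lower). A single call in a list of 20 or 32 genes does not stand out from that share. The complex I median of each pool was -0.30 to -0.10 in C57BL/6J, against -0.26 to 0.03 in DBA/2, -0.18 to 0.17 in BALB/c, -0.07 to 0.12 in FVB/NJ and -0.12 to 0.40 in 129X1/SvJ. C57BL/6J and DBA/2 pools overlapped widely in this value. Genes of a list are measured on the same arrays and are not independent, so these counts are a description.

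**Figure D5:**
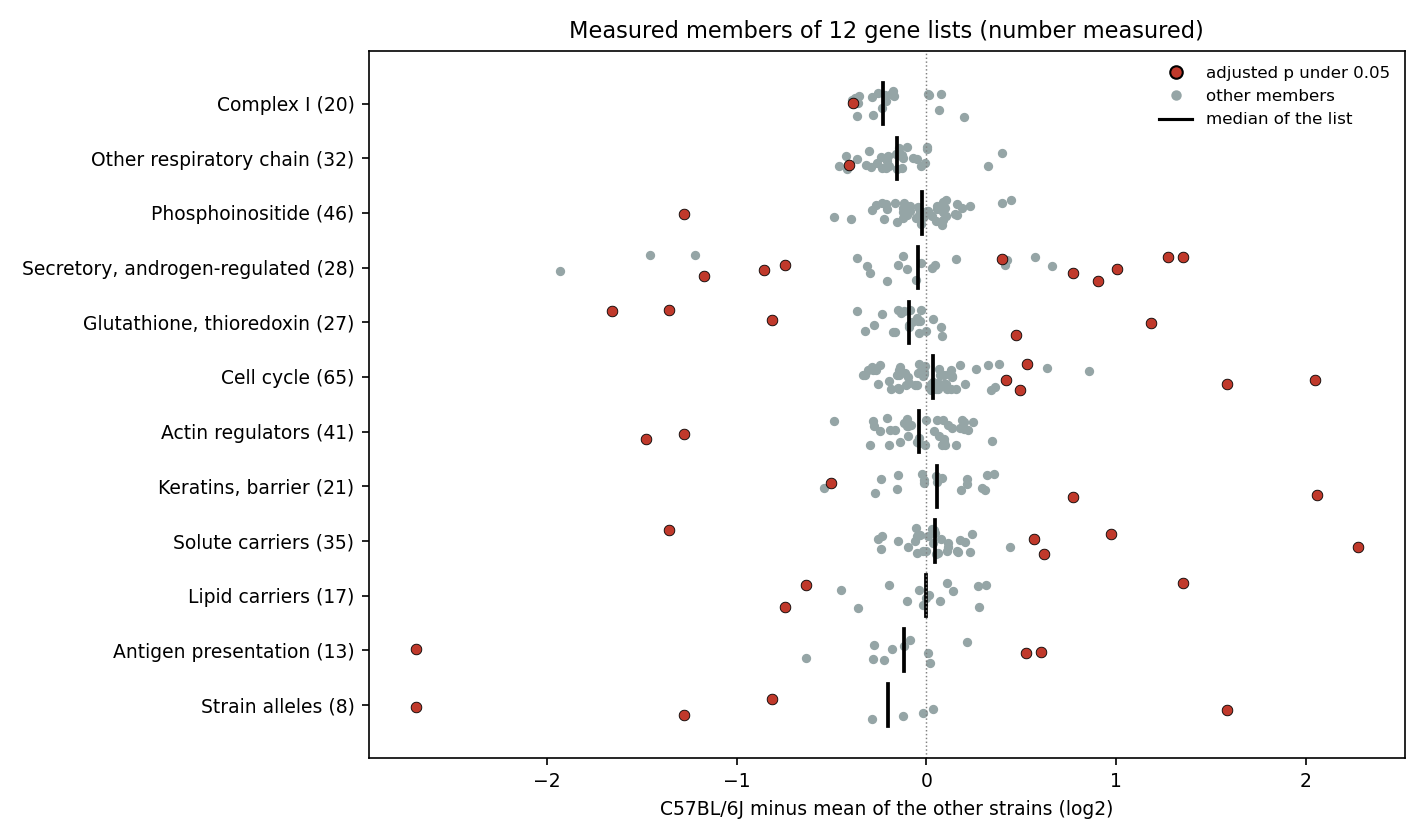
Difference of C57BL/6J from the mean of the other strains (x axis, log2) for the measured members of 12 gene lists (rows, with the number measured). Red points passed at an adjusted p under 0.05, grey points did not, and black bars are list medians. Most members lie near 0, the complex I median is at -0.23, and the called members fall on both sides in the secretory and glutathione lists. The row of strain alleles holds 8 measured genes chosen for variation between strains, of which Pttg1 was higher and Cap1, Glo1 and H2-Ea were lower.

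Further genes whose C57BL/6J pools did not overlap the others were chosen after their values were seen. On the higher side, Kel, an endopeptidase of the Kell blood group, measured 0.84, 0.74, 0.65 and 0.94 in C57BL/6J, against -1.05 to 0.40, a difference of 1.07 (SE 0.11, adjusted p = 4.91e-06). Rab26, a GTPase of secretory granules, differed by 1.13 (SE 0.14), and Creb3l4, a membrane-bound transcription factor known from androgen-responsive human prostate cells, by 1.08 (SE 0.13). BALB/c was the nearest strain for both, 0.51 below C57BL/6J. Abhd14b differed by 1.07, Cbx6, a Polycomb protein, by 1.03, the sulfhydryl oxidase Gfer by 0.83, the sugar transporter family gene Slc5a4b by 0.77, the sorting factor Vps37a by 0.75 and Sh3bgrl3 by 0.74. Sh3bgrl3 had a further element, with a difference of 0.72, that was beyond every strain (adjusted p = 0.0287) and lost this in 9 of 20 fits without 1 pool. The membrane mucin Muc1 differed by 0.61 (adjusted p = 0.0164), with no call without C57BL/6J pool 1, 2 or 3 (0.0724, 0.076 and 0.0525). Its other element, at 0.39, did not pass. The 2 Muc1 elements stand next to Odc1 elements on the array, with differences of 1.01 and 1.18. Their deviations from the strain means correlated with those of Odc1 at 0.470 and 0.520. The part of the Odc1 spots in the Muc1 values was not tested.

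On the lower side, Tuft1, a protein first known from tooth enamel, measured -0.92, -0.80, -0.58 and -0.81 in C57BL/6J, against -0.35 to 0.85 (median 0.07). The difference was -0.94 (SE 0.11, adjusted p = 2.65e-05), and it was close to the criterion of every strain (adjusted p = 0.0864). Slc30a10, a manganese exporter, differed by -0.95 (SE 0.14), Ramp1, a partner of the calcitonin receptor-like receptor, by -0.84 (SE 0.13), and the apoptosis mediator Bid by -0.81 (SE 0.14). Atp6v0e2, a proton pump subunit, differed by -0.76 (SE 0.09), Anxa3, an annexin, by -0.74 (SE 0.10) and Moxd1, a monooxygenase-like protein, by -0.61 (SE 0.09). All 7 were called and had no overlap of pools by the representing element. For Anxa3 the gap was very narrow, because BALB/c was low as well. Its C57BL/6J pools measured -0.7144 to -0.5244, BALB/c pools -0.5226 to -0.3344 and the remaining pools -0.18 to 0.62. A further Moxd1 element gave -0.15 (adjusted p = 0.667) with overlap, and by a further Bid element, at -0.81, C57BL/6J pool 2 reached other pools. The 2 Bid elements stand next to Psca elements on the array, with differences of -1.80 and -1.89. Deviations of these neighbours correlated at 0.066 and 0.213, and the part of the Psca spots in the Bid values was not tested. Some inflammatory and surface genes were called with overlap. Il18, a cytokine, differed by -1.15 (SE 0.15) with BALB/c low as well (mean -0.91 beside -1.09 in C57BL/6J), Ccl8, a chemokine, by -0.89 (SE 0.18; -1.06 by its other element), Gprc5a, an orphan receptor, by -1.04 (SE 0.13) and Adgre5, an adhesion receptor of leukocytes, by -1.13 (SE 0.15). The pattern of 9530053A07Rik depended on the element, at 1.45 (SE 0.10) by the representing one with DBA/2 within 0.23, and at 0.40, 0.45 and 0.06, none past the threshold, by the others.

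Several genes that the study singled out did not separate C57BL/6J from the mean of the other strains. The study named Clu for a high level in FVB/N, and Mmp7 for variation widest between 129X1/Sv and DBA/2. It named Apod, Esr1 and Rbp4 from a comparison of C57BL/6 with FVB/N alone. The contrast used here does not address those comparisons. By representing elements FVB/NJ pools measured 0.91 to 2.44 for Clu. For Apod they measured 0.30 to 0.89, beside -0.28 to 0.125 in C57BL/6J. Mmp7, the matrilysin protease, measured -0.11, -0.24, 0.05 and 0.13 in C57BL/6J, inside the wide range of -1.94 to 1.32 of the other pools, and differed by 0.43 (SE 0.15, adjusted p = 0.157). Clu, a secreted chaperone, measured -1.02, -1.78, 0.99 and -1.21 by one element and -0.91, -1.58, -0.97 and -1.20 by another, so that pool 3 was high by the first element alone. The differences of -0.31 (adjusted p = 0.775) and -0.61 (0.126) did not pass, and without pool 3 the first was -0.90 (0.0806). The remaining differences were 0.57 for the growth factor Egf (SE 0.20, adjusted p = 0.147, and 0.48 with a call, 0.0136, without 129X1/SvJ pool 4), -0.32 for the chemokine Cxcl12 (SE 0.11, adjusted p = 0.146, and called at -0.35, 0.0401, without 129X1/SvJ pool 3), 0.32 for the retinol carrier Rbp4, -0.10 for the apolipoprotein Apod and -0.05 for the oestrogen receptor Esr1. By its representing element each of these genes had C57BL/6J pools that overlapped those of the other strains. A further Rbp4 element measured -0.31, -0.02, -0.03 and -0.73 in C57BL/6J, against -0.39 to 0.44 elsewhere, and another 0.08, -0.21, 0.14 and 0.46. Further Esr1 elements measured -0.45, -0.02, -0.02 and -0.17, and -0.505, -0.63, -0.10 and -0.11. FVB/NJ was at 0.25 to 0.83 and 0.23 to 0.80 by these. The remaining Esr1 element ran from -1.32 to 1.79 within C57BL/6J.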

How the data were processed

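Prostate RNA of 20 pools, 4 per strain and 3 male mice per pool, was measured on 2-colour cDNA arrays against a common reference. The authors scanned the arrays, subtracted the local background, set spots not above background to missing, applied a loess fit per print tip within every array, and deposited log2 ratios of pool over reference, on which all values here rest. Array dye was balanced, 2 pools in each dye per strain. Elements with more than 3 missing values of 20, or under 2 values in a strain, were left out (393 of 11552; 2.89% of all values were missing). Of all elements, 8050 had 1 gene symbol in the platform annotation, 672 several and 2830 none listed, and 7880 matched the RefSeq gene table of GRCm38.p6, with 0 symbols changed. Each gene was represented by its element with the fewest missing values, ties going to the lowest element number.

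Strain means were fitted with limma 3.58.1 in R 4.3.3 (lmFit and eBayes) on all 20 arrays, which share one estimate of spread. The first contrast was C57BL/6J minus the mean of the 4 other strain means. The second required all 4 pairwise differences to have one sign and took the largest of their p-values. P-values were adjusted by Benjamini-Hochberg over 11159 elements, with a threshold of 0.05. In simulated data with 11159 elements, 92 of 100 differences of size 1 and 99 of 100 of size 2 were found by the first contrast, with 6.83% of all calls false, and 80 and 96 by the second, with 0% false. The simulation gave the 4 other strains the same mean. Levels that C57BL/6J shares with only some strains could not occur in it. The values for the second contrast therefore do not measure errors of that kind. Named genes were those that passed both tests, those the study names, and called members of the gene lists; others are stated to have been chosen after their values were seen. The members of the comparison and all lists were chosen with earlier results of these data known. Alternatives covered the filter on missing values, arrays centred, scaled or quantile normalized, a dye term, each dye alone, a replicate block, averaged elements, robust spread, array weights, 2 groups, leaving out 129X1/SvJ and leaving out each pool.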

Additional observations from a re-analysis of the deposited data

Results flagged for a closer look

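Among 405 groups of 4 pools (81 named genes in 5 strains), 12 pools lay far from the other 3 of their group relative to the range. By chance alone about 1 in 20 groups is expected to do so. The 12 of 405 are not above that rate, and they are listed as a description. In C57BL/6J these were pool 1 of B2m, at -1.24 beside -0.40 to -0.38 in the other 3 pools, pool 1 of Gfer, at 1.02 beside 0.55 to 0.58, and pool 2 of Mcm6, at 0.0827 beside 0.50 to 0.56. B2m in pool 1 was also the lowest C57BL/6J value by both further elements of the gene.

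The other 9 lay in the strains that C57BL/6J was set against. In 129X1/SvJ, pool 4 was apart for Psca, at -0.204 beside 1.09 to 1.34, for Vnn1, at -2.44 beside -3.29 to -3.27, and for Fabp4, at 0.935 beside 0.15 to 0.28. In FVB/NJ, pool 4 was apart for Psca, at 0.342 beside 0.07 to 0.08, pool 2 for Prdx3, at 0.345 beside -0.27 to -0.18, and pool 1 for Ccnb2, at -0.429 beside -0.15 to -0.11. In BALB/c, pool 4 was apart for Anxa3, at -0.334 beside -0.52 to -0.49. In DBA/2, pool 1 was apart for Gm7714, at 2.78 beside 0.55 to 0.79, and pool 4 for Rab26, at 0.043 beside -0.33 to -0.30.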

How the results depend on the processing

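The 359 called elements (198 higher, 161 lower) and the 17 beyond every strain became 198 (111 higher, 87 lower) and 6 with the Cy3 arrays alone, and 55 (37 higher, 18 lower) and 5 with the Cy5 arrays alone, where each strain has 2 arrays. Array weights gave 556 (305 higher, 251 lower), and 4 against 16 arrays as 2 groups gave 129 (72 higher, 57 lower). Without 129X1/SvJ, 541 were called (301 higher) and 47 were beyond the remaining strains, which are fewer. The 129X1/SvJ arrays varied most, with standard deviations of their log2 ratios of 0.47 to 0.68, beside 0.28 to 0.41 in the other strains. Their array weights were 0.156 to 0.543, beside 0.667 to 2.94. All strains share one estimate of spread, and leaving out 129X1/SvJ pool 4 alone gave 512 called elements. The part of the 129X1/SvJ spread in these counts was not tested. A dye term raised the elements beyond every strain to 27. With 1 pool left out, called elements ranged from 225 to 512, higher ones from 120 to 280, lower ones from 105 to 232 and those beyond every strain from 9 to 20. The other alternatives kept each count within 1.5 times. A replicate block gave 393 (208 higher, 185 lower) and 18, and Prdx3 alone among the named genes lost its call (adjusted p = 0.071). Deviations of pools with the same number correlated at a median of 0.266 within a dye and -0.115 across dyes, and those of different number at 0.181 and -0.233. Same-numbered pools were thus somewhat more alike within either class. Their 24 pairs within a dye all correlated above 0 (0.005 to 0.421), and pairs below 0 occurred only across dyes (-0.33 to 0.156). No source ties a number to a shared litter or day.

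Over 81 named genes, 1011 of 1134 values under processing alternatives and 1527 of 1620 with 1 pool left out kept direction and call. A further 112 and 89 lost the call, 7 and 3 gained it, and 4 and 1 changed sign. The sign changes were those of Clu (0.298 with Cy5 arrays, 0.0889 with array weights and 0.0276 without C57BL/6J pool 2, in a range down to -0.896 without C57BL/6J pool 3), Svs2 (0.61 with Cy5 arrays) and Esr1 (0.0492 with Cy5 arrays), none of them called; their cause was not tested. All 10 genes beyond every strain kept the call against the mean of the others in every fit without 1 pool. With 4 arrays a strain, small differences are within the spread between pools, and signal over background is not known from ratios.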

Other observations

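Genes next to each other in the genome were called together in some places. Of 209 called genes with a place in the gene table, 15 (7.18%) had a called gene as the next measured one on the chromosome, where 3.67% of all placed genes were called. The pair had the same direction in 6 cases. Mgst1 and Pik3c2g were both lower in C57BL/6J (-1.66 and -1.17), and in both BALB/c and DBA/2 were low too. Slc6a2 had Ces1e as its next measured gene, a carboxylesterase gene, higher by 0.53 (adjusted p = 0.00308). Perm1 and Plekhn1 were both higher (1.14 and 0.71), as were Trim12a and Trim30d (0.53 and 0.51), while Zfp862-ps and Atp6v0e2 (-0.57 and -0.76), and AI429214 and Tusc3 (-0.58 and -0.42), were both lower. In 9 cases the directions were opposite, among them Odc1 (1.01) beside Itgb1bp1 (-0.37), and Chp1 (0.52) beside Oip5os1 (-1.02).

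Different elements of a gene gave a partial check of the calls. Of 72 called genes with several elements, 62 had all other elements in the same direction and 28 had another element that was also called. In 604 pairs the elements of a gene stood 192 positions apart, and their deviations from the strain means correlated at a median of 0.645, beside 0.222 in 2515 pairs at other spacings, so elements at that spacing are less independent as measurements.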
